A study of Mus musculus with 16 samples.

Results

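The 44 genes described here are the cell cycle genes of C2C12 muscle cultures, with cyclin D1 (Ccnd1) among them. They were taken by mouse gene symbol as 11 genes of the G1 phase, 13 of DNA replication and 20 of mitosis, out of 48432 gene identifiers, and all 44 were among the 13987 genes with enough fragments to be tested. C2C12 is an established mouse myoblast line whose cells leave the cell cycle and fuse into myotubes on differentiation. RNA was sequenced from cultures differentiated for 5 days. The 4 EPS libraries came from cultures given electrical pulse stimulation at 1 Hz, with 6 ms pulses, a duty cycle of 0.6%, a field of 2.75 V/mm and a polarity switch at 0.5 Hz, and the 4 control libraries came from unstimulated cultures. The sources used here give neither the length of the stimulation nor whether libraries of a group stem from separate cultures, so p-values measure a spread between libraries that may be only technical. The RNA came from the whole culture, which can hold unfused myoblasts beside myotubes.

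D-type cyclins bind the kinases CDK4 and CDK6, which phosphorylate the retinoblastoma protein RB. Phosphorylated RB releases E2F transcription factors, which switch on genes of DNA replication, while genes of mitosis come later and are controlled by the DREAM and MuvB complexes. In muscle, cyclin D3 is the D-type cyclin that stays abundant after cells differentiate, whereas cyclin D1 is typical of dividing myoblasts and responds to growth signals.

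The EPS libraries held 14.7 to 20.7 M fragments (M, 10 to the power of 6). The control libraries held 12.6 to 20.7 M, apart from control library 2 with 0.354 M. A count of 3 fragments equals 0.145 to 0.238 CPM (counts per M) in the 7 deep libraries and 8.46 CPM in control library 2. Control library 2 lay at 209 on the first principal component of log2 CPM and the other 7 between -36.2 and -22.5, while EPS libraries 1 and 2 lay at -46.4 and -88.1 on the second and the other 6 between -1.6 and 45.2. EPS and control libraries carry the same replicate numbers, 1 to 4, and same-numbered libraries deviated together, so a fit with the number as a block is given wherever it changes a call.

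Of the 44 genes, edgeR's quasi-likelihood test called 1 higher and 0 lower in EPS at an adjusted p below 0.05 (Benjamini-Hochberg over all genes tested). The same test called 2.30% of all genes higher and 0.758% lower (3.06% in either direction), so these counts were near the background. At an unadjusted p below 0.05 there were 7 of the 44 (15.9%, against 18.5% of all genes), DESeq2 called 1 higher and 1 lower, and limma on log2(FPKM + 1) called none. With the replicate block, 4 genes passed as higher in EPS (Ccnd1, Cdk6, Mcm5 and Mcm6) and 4 as lower (Ccnd3, Cdkn1c, Rb1 and Cdk2), where 7.31% and 4.78% of all genes passed. All 4 EPS libraries lay above all 4 controls for Ccnd1 and Mcm5 (2 of 44, against 9.32% of all genes) and below them for Cdk2 (1 of 44, against 4.83%). An edgeR fit without both libraries numbered 2, added after the data were seen, called 0 higher and 2 lower (Ccnd3 and Cdk2), with Ccnd1 at an adjusted p of 0.0656. In bulk RNA, fewer cells of a type and less RNA per cell cannot be told apart.

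**Figure D1:**
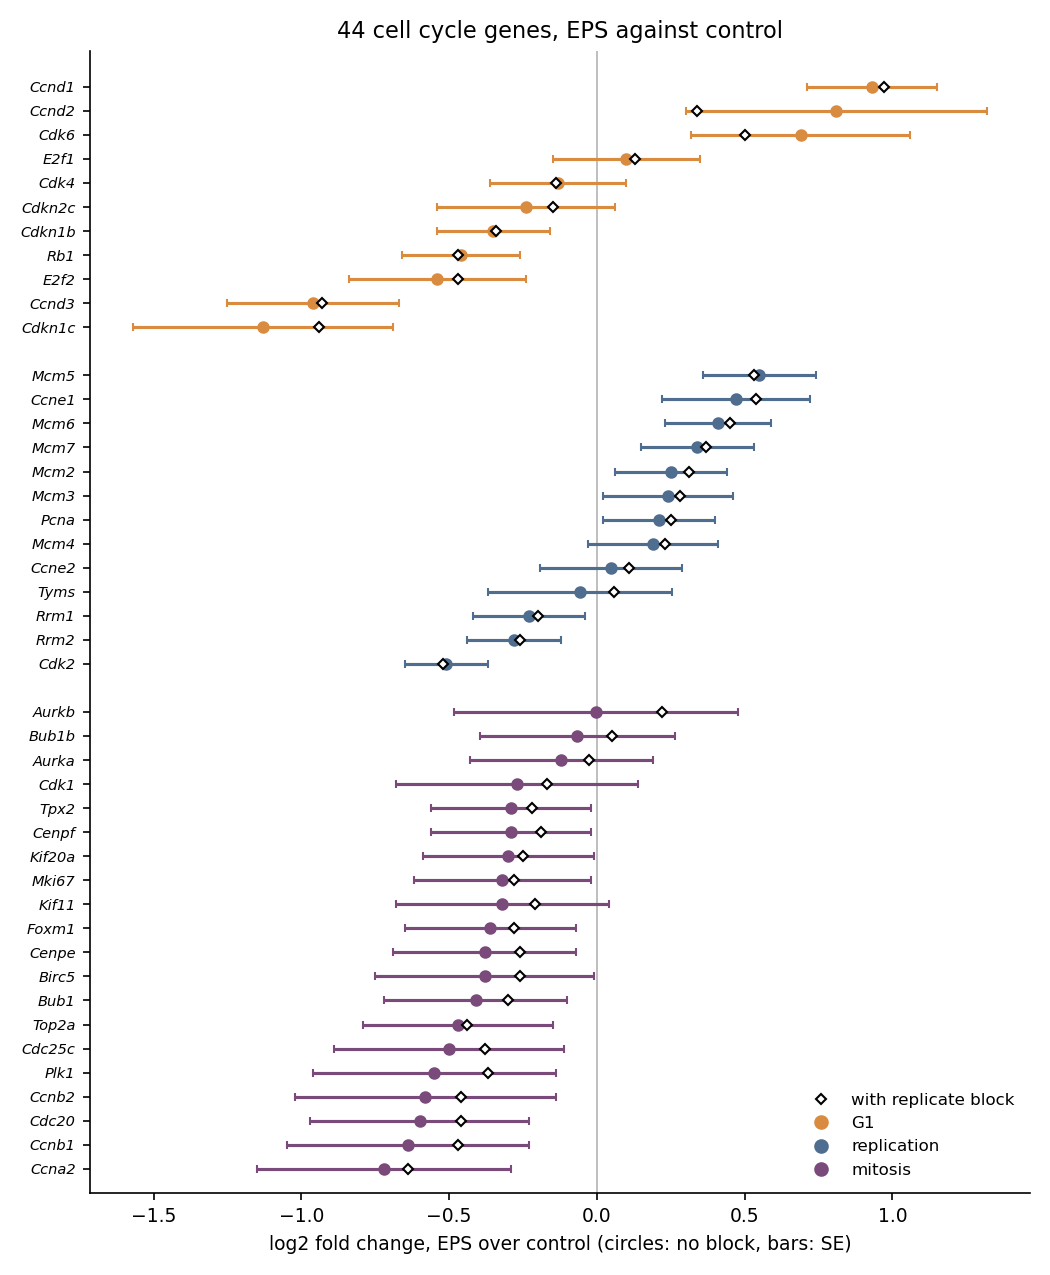
Log2 fold change (EPS over control, edgeR) of the 44 genes by class, with bars of 1 standard error and diamonds for the fit with the replicate block. Mitosis genes lie between -0.72 and -0.0021, replication genes on both sides of 0, and Ccnd1 at 0.93 is the gene past the threshold without the block.

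Cyclin D1, which couples growth signals to CDK4 and CDK6, rose in EPS. Ccnd1 (ENSMUSG00000070348.5, chr7:144929931-144939925 of mm10, minus strand) was at 72, 72.2, 72.3 and 90 CPM in EPS libraries 1 to 4, and at 29.6, 28.4, 39.7 and 56.3 CPM in control libraries 1 to 4. All EPS values exceeded all control values, and library 4 was the highest in each group. The means were 76.6 ± 8.94 CPM in EPS and 38.5 ± 12.9 CPM in control (SD, n = 4 each), a fitted 1.91-fold change (log2 0.93, SE 0.22, edgeR adjusted p = 0.0476). The block gave a log2 fold change of 0.97 (SE 0.14, edgeR adjusted p = 0.00243). Between libraries of the same number, the log2 ratio of EPS to control was 1.28 for number 1, 0.86 for number 3 and 0.68 for number 4.

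The Ccnd1 call lay close to the threshold. Without EPS library 1, 2, 3 or 4 the edgeR adjusted p was 0.123, 0.0544, 0.0622 and 0.0819, without control library 1, 2 or 3 it was 0.163, 0.0744 and 0.176, and without control library 4 it was 0.0295. The log2 fold change stayed between 0.79 and 1.17 in these fits. The value of control library 2 rests on 10 fragments, with an exact Poisson interval of 13.6 to 52.2 CPM at 95% confidence, and such intervals cover counting error only. LTO1, a gene on the opposite strand, overlaps Ccnd1 by 1771 bases and averaged 14.8 CPM in EPS and 11.5 CPM in control (edgeR adjusted p = 0.689). Because the sources used here do not state the strand setting of the counting, the origin of reads in that overlap is uncertain.

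Cyclin D3 had a negative log2 fold change in every fit, and whether it passed depended on the fit. Ccnd3 (chr17:47505051-47599691 of mm10, plus strand) was at 102, 115, 180 and 167 CPM in EPS libraries, against 301, 128, 322 and 323 CPM in control libraries. The 3 deep controls lay above every EPS library, and control library 2, with 45 fragments (exact Poisson interval 93.3 to 171 CPM), lay among the EPS values. The means were 141 ± 38 CPM in EPS and 268 ± 94.2 CPM in control (SD, n = 4 each), a log2 fold change of -0.96 (SE 0.29, edgeR adjusted p = 0.108). The gene passed as lower with the replicate block (log2 -0.93, edgeR adjusted p = 0.0128), in DESeq2 (adjusted p = 0.0222) and in edgeR without control library 2 (log2 -1.16, adjusted p = 0.0297). With any other library left out alone it did not pass (edgeR adjusted p up to 0.3), and limma did not call it. Bysl, on the opposite strand, overlaps Ccnd3 by 361 bases and averaged 59.5 CPM in EPS and 54 CPM in control.

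Cyclin D2, the remaining D-type cyclin, did not pass in either fit. Ccnd2 was at 24.8, 70.2, 17.1 and 16.3 CPM in EPS libraries, and at 15.7, 45.5, 14.8 and 16.2 CPM in control libraries, where 45.5 rests on 16 fragments. Library 2 was the highest in each group. The other 3 EPS values lay above the other 3 control values, by the narrow margin of 16.3 over 16.2 CPM. Its log2 fold change was 0.81 (SE 0.51, edgeR adjusted p = 0.437) and fell to 0.34 with the block (adjusted p = 0.193).

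Per transcript length, the 3 D-type cyclins kept the same order in both groups, with a smaller gap in EPS. Ccnd3 averaged 73 ± 19.6 FPKM (fragments per kilobase and M fragments) in EPS and 140 ± 22.6 FPKM in control, Ccnd1 18.9 ± 1.4 and 9.4 ± 2.63 FPKM, and Ccnd2 4.99 ± 4.05 and 3.4 ± 2.02 FPKM (SD, n = 4 each). Of the summed FPKM of the 3 genes, Ccnd1 made up 23.9, 20.2, 15.8 and 20% in EPS libraries, against 4.99, 5.89, 5.67 and 8.01% in control libraries, with no overlap. The level of Ccnd3 was 2.97, 3.36, 5.16 and 3.88 times that of Ccnd1 in EPS libraries, and 18.7, 15.1, 16.4 and 11.3 times in control libraries. Their sum was 72.7, 93.3, 118 and 104 FPKM in EPS libraries and 144, 127, 180 and 159 FPKM in control libraries, so the summed FPKM was lower in every EPS library than in any control. In CPM, the sum was 199, 258, 269 and 273 CPM in EPS libraries and 346, 202, 377 and 395 CPM in control libraries. On that scale control library 2 lay within the EPS range, so the separation of all 4 controls held in FPKM alone. Ccnd3 was at 128 CPM and 113 FPKM in control library 2, but at 301 CPM and 134 FPKM in control library 1. In control library 2 the values of Ccnd3 and Ccnd1, and so their ratio, rest on 45 and 10 fragments. Why the scales differ there was not tested.

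**Figure D2:**
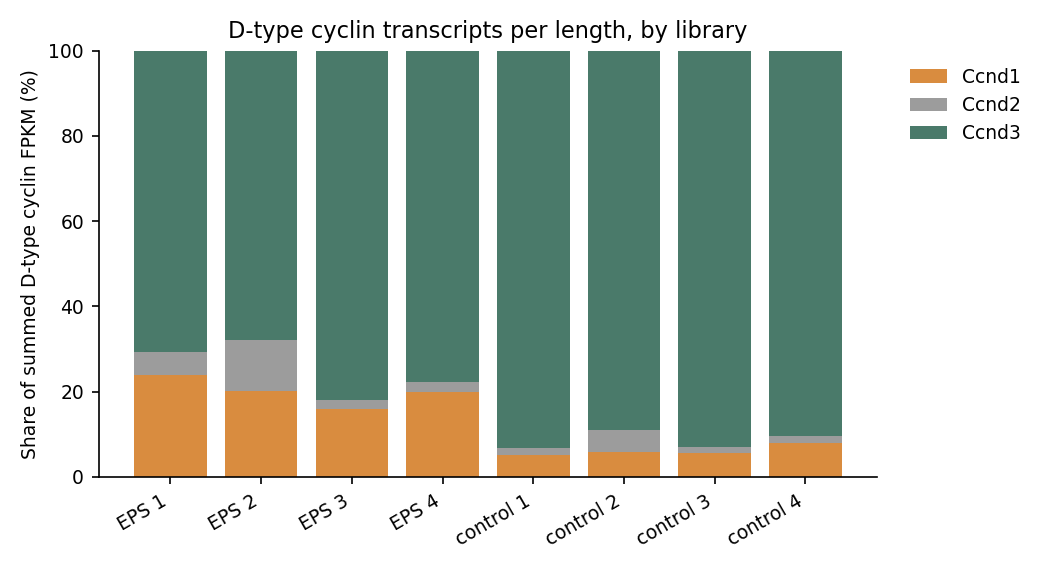
Share (%) of each D-type cyclin in the summed FPKM of Ccnd1, Ccnd2 and Ccnd3, 1 bar per library, EPS libraries left and control libraries right. The Ccnd1 share is 15.8 to 23.9% in EPS libraries and 4.99 to 8.01% in control libraries.

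Of the kinases that D-type cyclins activate, Cdk6 was higher in EPS with the block and Cdk4 did not pass. Cdk6 was at 81.6, 195, 70.6 and 74.8 CPM in EPS libraries, and at 51.4, 119, 54.8 and 59.7 CPM in control libraries. Library 2 was again the highest in each group, and within the 3 deep pairs of equal number EPS exceeded control by 0.67, 0.36 and 0.32 on the log2 scale. For Cdk6 the log2 fold change was 0.69 (SE 0.37, edgeR adjusted p = 0.363), and 0.50 with the block (edgeR adjusted p = 0.0312). Cdk4 was at 80.2, 82.4, 146 and 134 CPM in EPS libraries, and at 104, 102, 135 and 139 CPM in control libraries. These ranges overlapped (log2 fold change -0.13, SE 0.23, edgeR adjusted p = 0.807). Per length, Cdk4 averaged 54.3 FPKM in EPS and 68.1 FPKM in control, and Cdk6 averaged 13.2 FPKM in EPS and 8.24 FPKM in control.

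The 3 CDK inhibitors among the members had log2 fold changes below 0, and 1 of them passed with the block. Cdkn1c, which encodes p57, a CDK inhibitor of the Cip and Kip family, was at 4.58, 1.44, 8.23 and 5.63 CPM in EPS libraries, against 8.61, 5.68, 14.9 and 11.1 CPM in control libraries. Each EPS library lay below the control of the same number, and the groups overlapped only through control library 2, with 2 fragments, and EPS library 3. The log2 fold change was -1.13 (SE 0.44, edgeR adjusted p = 0.199) and passed with the block (log2 -0.94, edgeR adjusted p = 0.0112). Cdkn1b, which encodes p27, was at 65.3, 79.8, 94.4 and 83 CPM in EPS libraries, and at 82.7, 136, 114 and 89.8 CPM in control libraries (log2 fold change -0.35, SE 0.19, edgeR adjusted p = 0.361). Its EPS values were each below the same-numbered control, yet the ranges overlapped. Cdkn2c, which encodes p18, an inhibitor of CDK4 and CDK6, was at 19.6, 17.3, 31 and 33.2 CPM in EPS libraries, and at 21.5, 14.2, 32.2 and 42 CPM in control libraries (log2 fold change -0.24, SE 0.30, edgeR adjusted p = 0.723).

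Rb1, which encodes RB, was lower in EPS with the block. Its levels were 174, 220, 150 and 161 CPM in EPS libraries, and 222, 330, 228 and 205 CPM in control libraries. Each EPS library lay below its same-numbered control, and only EPS library 2 reached the control range. The log2 fold change was -0.46 (SE 0.20, edgeR adjusted p = 0.24), and -0.47 with the block (edgeR adjusted p = 0.0374). E2f1, an activating E2F, was at 13.3, 9.62, 10.9 and 9.79 CPM in EPS libraries, and at 9.59, 2.84, 13.1 and 9.65 CPM in control libraries (log2 fold change 0.10, SE 0.25, edgeR adjusted p = 0.874). E2f2, a second activating E2F, was at 64.5, 40.9, 69 and 78.8 CPM in EPS libraries, and at 121, 34.1, 85.1 and 108 CPM in control libraries (log2 fold change -0.54, SE 0.30, edgeR adjusted p = 0.37). The E2f2 levels of the 3 deep controls lay above all EPS libraries, and control library 2, with 12 fragments, lay below them.

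**Figure D3:**
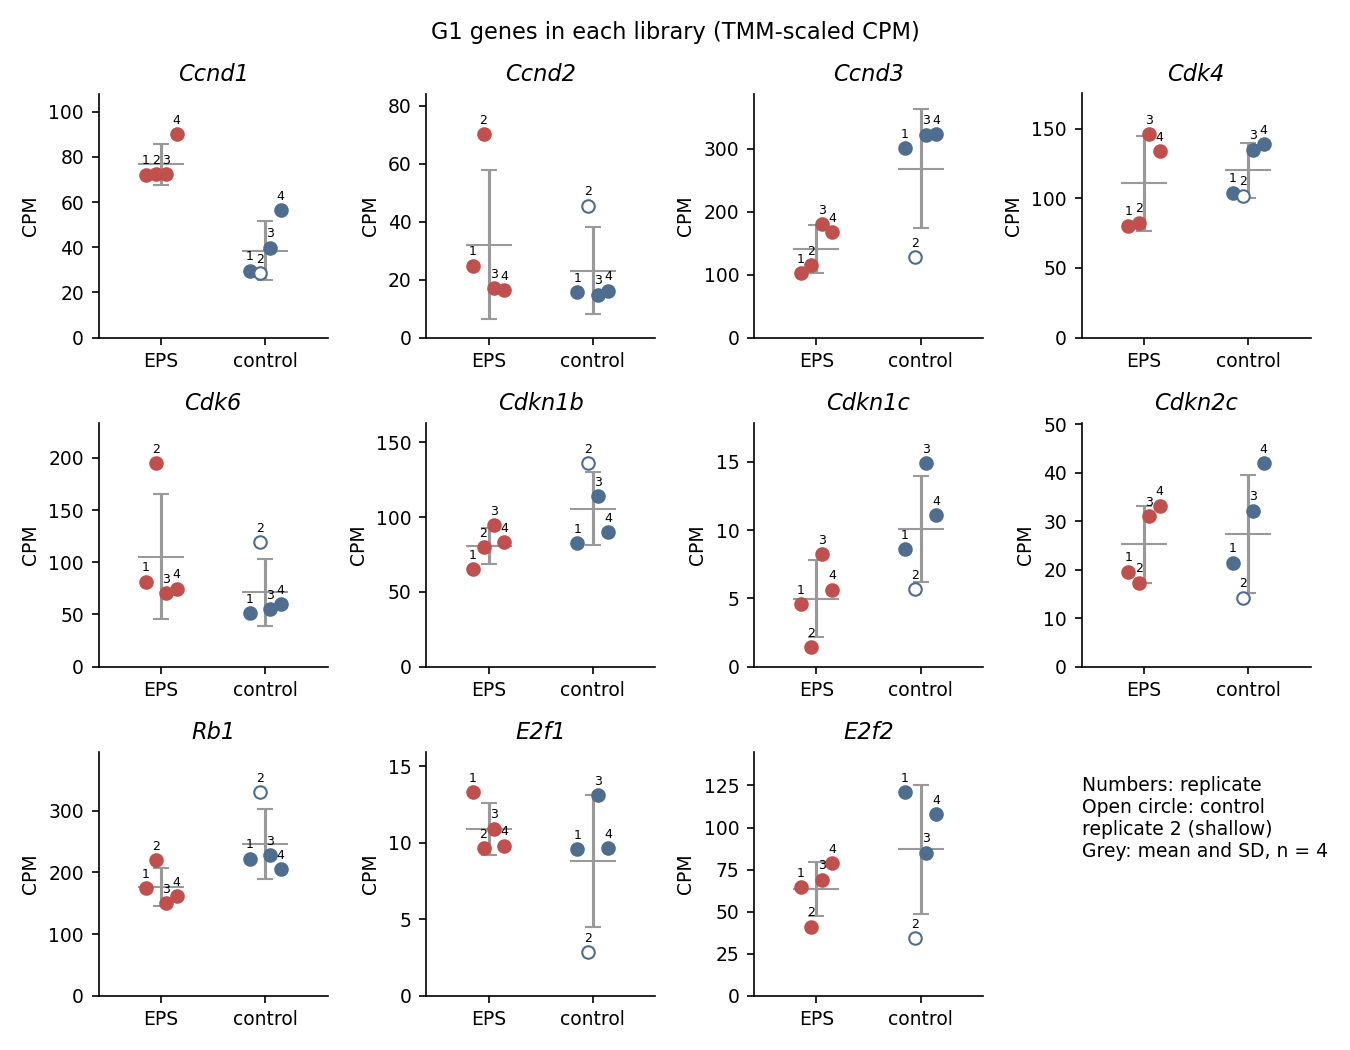
CPM of the 11 G1 genes in each library (numbered points), EPS left of control in each panel, with the mean and SD of each group (n = 4) in grey and control library 2 as an open circle. EPS and control points separate for Ccnd1. Apart from control library 2, EPS points lie above the controls for 3 genes (Ccnd1, Ccnd2 and Cdk6). They lie below them for 3 (Ccnd3, Cdkn1c and E2f2). Of 13987 genes tested, 1925 and 1542 separate in this way.

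The 13 replication genes had small differences in both directions, and none passed in edgeR without the block (3 at an unadjusted p below 0.05, or 23.1%, against 18.5% of all genes; 0 by DESeq2 and by limma). The log2 fold change was above 0 for 9 and below 0 for 4, with a median of 0.21, while the median of all genes was 0.01. All 6 subunits of the MCM helicase, which unwinds DNA at replication origins, were among the 9. With the block, Mcm5 and Mcm6 passed as higher and Cdk2 as lower in EPS. When offsets for transcript length and GC content were added to the block, Mcm5 and Mcm6 no longer passed.

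Mcm5 was at 37.4, 44.5, 37.6 and 43.1 CPM in EPS libraries, against 26.1, 19.9, 23 and 36.8 CPM in control libraries. Every EPS library lay above every control, by a small margin over control library 4. The log2 fold change was 0.55 (SE 0.19, edgeR adjusted p = 0.156), and 0.53 with the block (edgeR adjusted p = 0.0422). Mcm6 was at 67.4, 57.4, 65.2 and 78.5 CPM in EPS libraries, against 46.4, 42.6, 43.6 and 65.7 CPM in control libraries, so control library 4 reached the EPS range. Its log2 fold change was 0.41 (SE 0.18, edgeR adjusted p = 0.262), and 0.45 with the block (edgeR adjusted p = 0.0406). Mcm7, Mcm2, Mcm3 and Mcm4 had log2 fold changes of 0.34, 0.25, 0.24 and 0.19, with overlapping groups, and did not pass in either fit.

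The 250 bases before the starts of Mcm5 and Mcm6 are shown because these genes passed as higher with the block and share the letters of an E2F site. Whether such letters go with a rise was not tested. Among replication genes, Cdk2, which passed as lower with the block, also holds an E2F match. So do Mcm3 and Mcm7, which had log2 fold changes of 0.24 and 0.34 and did not pass. They are RefSeq promoters of GRCm38.p6, with Mcm5 at chr8:75109259-75109508 (plus strand) and Mcm6 at chr1:128359706-128359955 (minus strand), and capitals mark matches to the E2F, CCAAT and cyclic AMP motifs listed further on.
Mcm5: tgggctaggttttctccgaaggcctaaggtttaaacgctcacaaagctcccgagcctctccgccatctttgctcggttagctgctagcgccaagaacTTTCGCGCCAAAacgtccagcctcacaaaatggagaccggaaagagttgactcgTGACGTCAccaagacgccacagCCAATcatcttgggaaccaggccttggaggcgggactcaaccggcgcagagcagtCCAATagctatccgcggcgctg
Mcm6: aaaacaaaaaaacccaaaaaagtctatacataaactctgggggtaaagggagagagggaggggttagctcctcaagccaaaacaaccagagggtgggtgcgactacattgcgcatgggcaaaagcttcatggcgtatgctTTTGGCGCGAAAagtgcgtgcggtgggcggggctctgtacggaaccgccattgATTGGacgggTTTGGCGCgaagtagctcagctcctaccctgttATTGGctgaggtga
The first run of capitals in each is 12 bases long and holds 2 overlapping E2F matches, and the run of Mcm6 is the reverse complement of that of Mcm5. Downstream of that run, Mcm6 holds another E2F match and 2 CCAAT boxes. Mcm5 holds 2 CCAAT boxes and, between the E2F matches and these, a cyclic AMP element.

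Cdk2, the kinase that cyclin E activates at the start of replication, was lower in EPS than in any control. It was at 35.1, 42.2, 38.4 and 39.1 CPM in EPS libraries, against 53.6, 65.3, 50.1 and 55.7 CPM in control libraries. These groups did not overlap, with a log2 fold change of -0.51 (SE 0.14, edgeR adjusted p = 0.0883), and -0.52 with the block (edgeR adjusted p = 0.0203). Its partners, the E-type cyclins Ccne1 and Ccne2, had log2 fold changes of 0.47 and 0.049 and did not pass. Ccne1 averaged 9.14 ± 1.62 CPM in EPS and 5.82 ± 2.24 CPM in control (SD, n = 4 each).

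The 3 replication genes with the highest FPKM did not pass in either fit. Rrm2, the small subunit of ribonucleotide reductase, which makes deoxyribonucleotides, was at 99.3, 85, 85.1 and 90.1 CPM in EPS libraries, and at 113, 131, 87.2 and 113 CPM in control libraries (log2 fold change -0.28, SE 0.16, edgeR adjusted p = 0.371). Rrm1, the large subunit, was at 133, 121, 103 and 119 CPM in EPS libraries, and at 134, 185, 102 and 148 CPM in control libraries (log2 fold change -0.23, SE 0.19, edgeR adjusted p = 0.57). Pcna, the sliding clamp of DNA polymerases, was at 55.5, 55.6, 58.2 and 62.8 CPM in EPS libraries, and at 42.7, 79.6, 41.4 and 52.3 CPM in control libraries (log2 fold change 0.21, SE 0.19, edgeR adjusted p = 0.619). For Pcna, all EPS libraries lay above the 3 deep controls and below control library 2, whose value rests on 28 fragments. Tyms, which makes thymidylate, had a log2 fold change of -0.057.

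The 20 mitosis genes had log2 fold changes below 0 throughout, and none passed. Values lay between -0.72 and -0.0021 with a median of -0.37, while 49.1% of all genes were below 0. No gene of the class was called by edgeR, with or without the block, by DESeq2 or by limma, 0 had an unadjusted edgeR p below 0.05, and the smallest edgeR adjusted p was 0.417. The groups overlapped for all 20. With the block the median was -0.27, and Aurkb and Bub1b were above 0 at 0.22 and 0.051. The median was -0.081 without control library 4 and -0.63 without EPS library 4, with Cdk1, Birc5, Aurka, Aurkb, Bub1b and Cenpf above 0 in the fit without control library 4.

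Levels of mitosis genes varied widely within both groups. Ccna2, which encodes cyclin A2 and had the lowest log2 fold change of the class, was at 28.9, 19.2, 54.8 and 78.2 CPM in EPS libraries, and at 40.3, 76.7, 68 and 114 CPM in control libraries. Its means were 45.3 ± 26.6 CPM in EPS and 74.8 ± 30.5 CPM in control (SD, n = 4 each; log2 fold change -0.72, SE 0.43, edgeR adjusted p = 0.417). Library 4 was the highest in each group, and EPS libraries 1 and 2 were the lowest of all 8. Top2a, the topoisomerase that untangles sister chromosomes, was at 135, 98, 164 and 240 CPM in EPS libraries, and at 145, 318, 163 and 275 CPM in control libraries (log2 fold change -0.47, SE 0.32, edgeR adjusted p = 0.47). Tpx2, a spindle assembly factor, was at 54.4, 54.9, 65.9 and 91.2 CPM in EPS libraries, and at 55.5, 116, 61.9 and 105 CPM in control libraries (log2 fold change -0.29, SE 0.27, edgeR adjusted p = 0.619). Aurkb, the kinase of the chromosomal passenger complex, had the value nearest to 0, with 6.8, 4.49, 13.6 and 18.7 CPM in EPS libraries, and 6.18, 5.68, 8.82 and 19.2 CPM in control libraries (log2 fold change -0.0021, SE 0.48, edgeR adjusted p = 0.998). In all 4 genes EPS library 4 was the highest EPS library.

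The other mitosis genes followed the same order of libraries. EPS libraries 1 and 2 were both below EPS libraries 3 and 4 in 20 of 20 genes, against 5281 of 13987 genes tested. Control library 4 was the highest of the 3 deep controls in 20 of 20 (4425 of 13987 genes tested), and control library 1 was the lowest of them in 20 of 20 (5474 of 13987). The summed level of the class was 678, 598, 925 and 1294 CPM in EPS libraries, and 734, 1256, 915 and 1641 CPM in control libraries, so the highest sum of each group was in library 4. Mki67, the nuclear protein used to stain dividing cells, averaged 214 ± 72.2 CPM in EPS and 268 ± 101 CPM in control. The mitotic cyclins Ccnb1 and Ccnb2 averaged 10.1 ± 5.34 and 14.2 ± 7.98 CPM in EPS, and 16.5 ± 6.38 and 20.7 ± 9.92 CPM in control (SD, n = 4 each). Their kinase Cdk1 averaged 21.6 ± 12 CPM in EPS and 24.6 ± 10.6 CPM in control.

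Further down the division, the anaphase activator Cdc20 had a log2 fold change of -0.60, the mitotic kinase Plk1 -0.55 and the phosphatase Cdc25c, which activates Cdk1, -0.50. Spindle checkpoint and kinetochore genes had -0.41 for Bub1, -0.38 for Cenpe, -0.29 for Cenpf and -0.066 for Bub1b. The spindle kinesins Kif11 and Kif20a had -0.32 and -0.30, the spindle kinase Aurka -0.12 and the passenger protein Birc5 -0.38. Foxm1, a transcription factor that drives mitosis genes, had -0.36. None of these passed in edgeR (adjusted p of at least 0.417).

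Promoters of Ccnb2, Cdk1 and Top2a are shown as examples because mitosis genes moved together across libraries and these 3 hold both the cell cycle homology region (CHR), the element bound by MuvB, and CCAAT boxes, bound by NF-Y. Aurka, Bub1b, Cdc20, Cenpf, Kif11, Mki67 and Plk1 hold both as well, when bases just past the start are counted. They are the 250 bases before the RefSeq start on GRCm38.p6, all on minus strands, at chr9:70421555-70421804 for Ccnb2, chr10:69352913-69353162 for Cdk1 and chr11:99024190-99024439 for Top2a, with motif matches in capitals.
Ccnb2: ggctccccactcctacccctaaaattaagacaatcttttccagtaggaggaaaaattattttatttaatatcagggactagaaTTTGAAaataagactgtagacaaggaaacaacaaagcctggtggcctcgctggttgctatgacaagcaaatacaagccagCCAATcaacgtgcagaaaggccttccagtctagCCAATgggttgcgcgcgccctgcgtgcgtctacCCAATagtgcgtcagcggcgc
Cdk1: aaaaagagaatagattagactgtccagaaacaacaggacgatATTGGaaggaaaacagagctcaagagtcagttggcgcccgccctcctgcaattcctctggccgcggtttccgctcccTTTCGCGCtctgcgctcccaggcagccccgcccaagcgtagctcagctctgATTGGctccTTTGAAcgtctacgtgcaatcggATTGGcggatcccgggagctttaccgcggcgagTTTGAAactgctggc
Top2a: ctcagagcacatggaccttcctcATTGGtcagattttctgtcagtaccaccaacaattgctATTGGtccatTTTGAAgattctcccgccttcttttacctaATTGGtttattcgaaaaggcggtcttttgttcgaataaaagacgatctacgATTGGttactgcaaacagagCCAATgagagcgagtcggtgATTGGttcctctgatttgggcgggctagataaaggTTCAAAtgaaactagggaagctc
In these 250 bases Ccnb2 holds 1 CHR and 3 CCAAT boxes, Cdk1 holds 2 CHR, 3 CCAAT boxes and 1 E2F site, and Top2a holds 2 CHR and 6 CCAAT boxes, counted on both strands. Ccnb2 holds another CHR match just past the start, outside the bases shown. Whether these elements have a part in the shared order of libraries was not tested.

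For comparison, the windows of Ccnd3 are shown, the G1 gene that was lower in EPS in several fits. The table gives a pair of starts on the plus strand, with windows at chr17:47504801-47505050 and chr17:47593217-47593466.
Ccnd3 first start: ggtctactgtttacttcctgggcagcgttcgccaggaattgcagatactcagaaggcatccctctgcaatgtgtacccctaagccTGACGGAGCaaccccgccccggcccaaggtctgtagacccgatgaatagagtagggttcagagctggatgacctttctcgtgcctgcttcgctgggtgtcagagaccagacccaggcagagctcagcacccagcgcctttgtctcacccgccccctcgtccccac
Ccnd3 second start: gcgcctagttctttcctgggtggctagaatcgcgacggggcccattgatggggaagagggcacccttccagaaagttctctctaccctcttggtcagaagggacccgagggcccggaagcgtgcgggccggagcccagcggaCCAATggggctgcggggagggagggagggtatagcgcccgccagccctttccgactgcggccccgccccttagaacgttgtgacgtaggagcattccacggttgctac
The first window holds the letters of an antioxidant element and the second a CCAAT box. Neither holds E2F or CHR letters.

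Across the members, motif letters differed by class. The RefSeq table gave promoters for 32 of the 44 genes, as 36 windows of 300 bases (250 before and 50 after the start), and Ccnd1, Ccnd2, Cdkn1c, Rb1, Ccne2, Mcm4, Aurkb, Ccna2, Cdc25c, Foxm1, Kif20a and Tpx2 had no entry. Both strands were searched for E2F sites (TTTGGCGC, TTTCCCGC, TTTGCCGC or TTTCGCGC), which may overlap each other, for CHR (TTTGAA), for the CCAAT box (CCAAT), for AP-1 sites (TGANTCA), for cyclic AMP elements (TGACGTCA) and for antioxidant elements (TGACNNNGC). CHR letters stood in 71.4% of mitosis windows (10 of 14), 8.33% of replication windows and 10% of G1 windows, and in 17.9% of all 32851 windows of the table. CCAAT stood in 92.9% of mitosis windows (13 of 14), 83.3% of replication windows (10 of 12) and 50% of G1 windows, and in 37.4% of all. E2F letters stood in 41.7% of replication windows (5 of 12), 7.14% of mitosis windows and 10% of G1 windows, and in 2.26% of all. AP-1 letters stood in none of the 36 windows, and in 7.81% of all. Cyclic AMP elements were found in 7.14% of mitosis, 8.33% of replication, 0% of G1 and 1.79% of all windows, and antioxidant elements in 21.4%, 16.7%, 30% and 12.4% of them. A match is a run of letters and not a measured binding site.

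**Figure D4:**
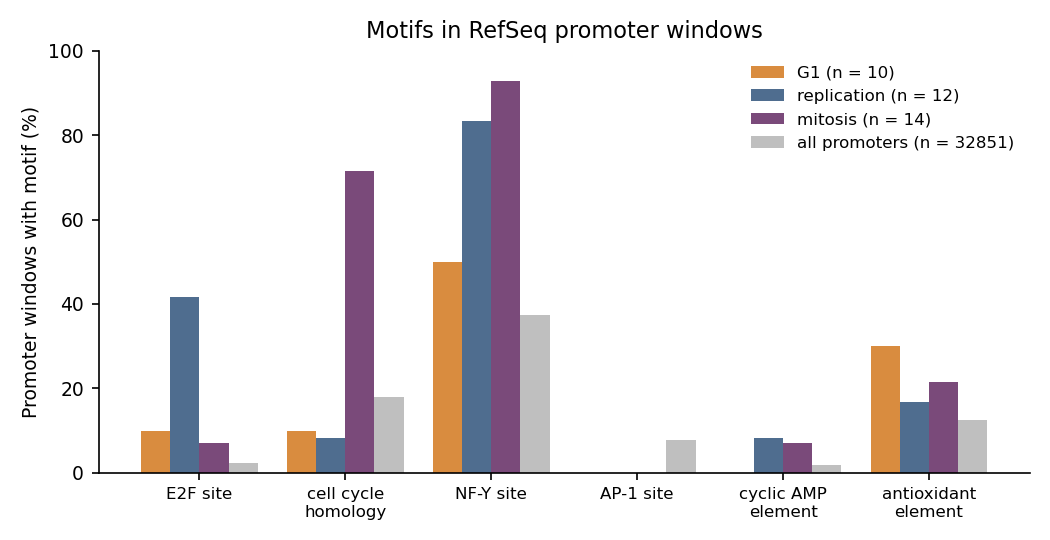
Share (%) of RefSeq promoter windows that hold each of 6 motifs, for G1, replication and mitosis genes and for all promoters in the table. The CHR bar of the mitosis genes stands at 71.4% and that of all promoters at 17.9%, and the E2F bar of the replication genes at 41.7% and that of all promoters at 2.26%.

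Set side by side by library, the classes did not share 1 order. The medians are log2 differences from the mean of the 3 deep controls. Mitosis genes had medians of -0.72, -0.93, -0.19 and 0.27 in EPS libraries 1 to 4, and -0.56, -0.12, -0.15 and 0.72 in control libraries 1 to 4. Replication genes had 0.33, 0.17, 0.20 and 0.32 in EPS libraries, and -0.10, 0.30, -0.23 and 0.30 in control libraries. In EPS libraries 1 and 2, mitosis genes thus had their lowest medians while replication genes were above 0. G1 genes had -0.53, -0.25, 0.01 and -0.12 in EPS libraries, and -0.15, -0.51, 0.06 and 0.06 in control libraries.

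Within the same-numbered pairs of deep libraries, the replication genes had median log2 ratios of EPS to control of 0.46, 0.44 and 0.015 for numbers 1, 3 and 4, and 7 of 13 were above 0 in all 3 pairs. Mitosis genes had -0.16, -0.0082 and -0.37, and 9 of 20 were below 0 in all 3 pairs, with 20 of 20 below 0 in number 4 but 11 of 20 in number 3. G1 genes had -0.34, -0.26 and -0.11. Across all genes these ratios had medians of 0.0088, 0.013 and 0.0021. Of 13987 genes tested, 3921 were above 0 in all 3 pairs and 3750 were below 0 in all 3. The difference between the classes was not tested.

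**Figure D5:**
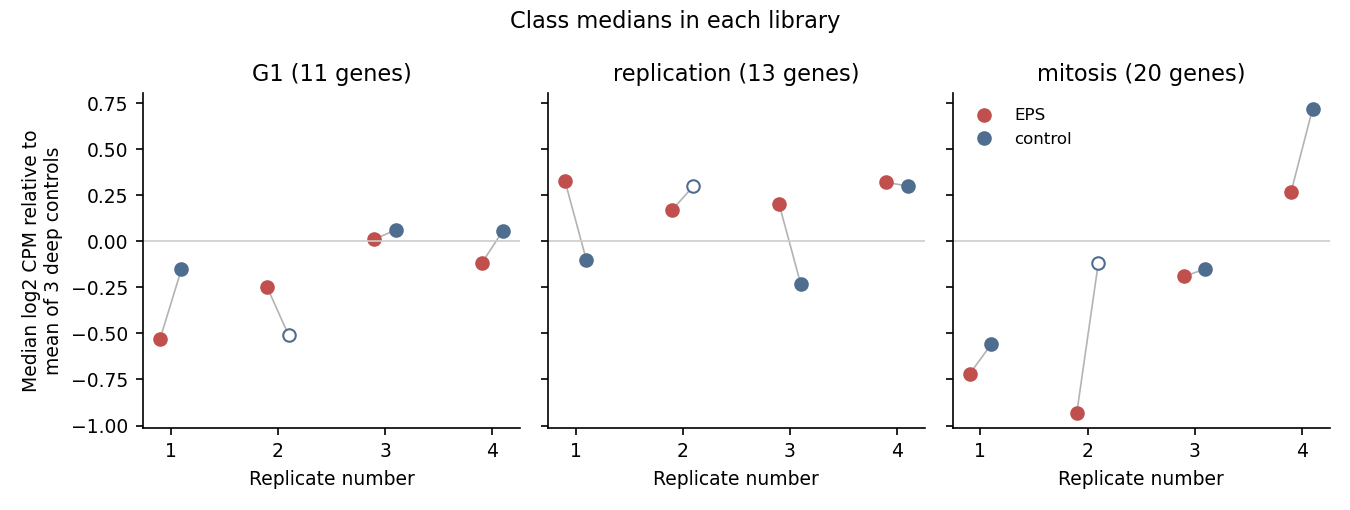
Median log2 CPM of the G1, replication and mitosis genes in each library, as the difference from the mean of the 3 deep control libraries, by replicate number, with the EPS library left of the control library it is joined to and control library 2 as an open circle. Mitosis medians run from -0.93 to 0.27 in EPS libraries and from -0.56 to 0.72 in control libraries, and replication medians from 0.17 to 0.33 and from -0.23 to 0.30.

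Transcript length moved with the libraries. Across genes, the correlation between log2 length and the deviation of log2 CPM from its mean was 0.16, 0.212, -0.288 and -0.247 in EPS libraries 1 to 4, and -0.033, 0.113, -0.198 and -0.192 in control libraries 1 to 4. With offsets for length and GC content, the class medians were -0.34 for G1, 0.066 for replication and -0.51 for mitosis and the median of all genes was -0.12, so the classes kept their order relative to all genes. In that fit Ccnd1 had a log2 fold change of 0.76 (edgeR adjusted p = 0.078) and Ccnd3 had -1.12 (edgeR adjusted p = 0.0178). Mcm5, Mcm6 and Cdk6, higher with the block, had 0.41, 0.22 and 0.35 and did not pass (edgeR adjusted p = 0.255, 0.539 and 0.528). Cdk2, Rb1 and Cdkn1c, lower with the block, had -0.73, -0.66 and -1.15 and did not pass (edgeR adjusted p = 0.0724, 0.0744 and 0.123). With block and offsets together, Ccnd1 was the only member called higher. The part of length in the class differences was not otherwise tested.

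Beyond the members, 133 further cell cycle genes were listed by role, of which 131 were tested, 2 rose and 1 fell in EPS (1.53% and 0.763%, against 2.30% and 0.758% of all genes). With the block 5 passed as higher and 2 as lower (3.82% and 1.53%, against 7.31% and 4.78% of all genes). The 3 called without the block were all among 26 tested regulators of G1 and of pocket proteins, whose median log2 fold change was 0.036. Fbxw7, which targets cyclin E and other proteins for degradation, was at 85.3, 111, 88.7 and 99.6 CPM in EPS libraries, against 202, 222, 178 and 180 CPM in control libraries. It fell by 1.01 on the log2 scale (SE 0.15, edgeR adjusted p = 0.00712), and remained past the threshold without any 1 library. Lin54, the MuvB subunit that binds CHR elements, was at 80.8, 106, 42.3 and 42.7 CPM in EPS libraries, against 24.2, 8.52, 25.3 and 25 CPM in control libraries, where 8.52 rests on 3 fragments. It rose by a log2 fold change of 1.54 (SE 0.33, edgeR adjusted p = 0.0368), with EPS libraries 1 and 2 highest. E2f6, a repressive E2F, was at 107, 119, 84.7 and 84.3 CPM in EPS libraries, against 56.1, 71, 59.3 and 50.7 CPM in control libraries, a rise of 0.77 on the log2 scale (SE 0.17, edgeR adjusted p = 0.0414). Lin54 was not past the threshold without EPS library 1 (edgeR adjusted p = 0.119) or control library 1, 2, 3 or 4 (0.123, 0.0585, 0.13 and 0.122), nor was E2f6 without EPS library 1 or 2 (0.136 and 0.0536) or control library 1, 3 or 4 (0.148, 0.153 and 0.175). E2f6 also missed it with length and GC offsets (log2 0.55, edgeR adjusted p = 0.224), and with block and offsets together (0.0824). With DESeq2 size factors or no filter it missed narrowly (edgeR adjusted p = 0.0512 and 0.0511). In both limma fits E2f6 (limma adjusted p = 0.0824 and 0.0907) and Lin54 (0.108 and 0.138) did not pass.

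Other regulators of this list were singled out after their values were seen. Cdkn1a, which encodes the CDK inhibitor p21, averaged 440 ± 60.7 CPM in EPS and 622 ± 94.5 CPM in control (SD, n = 4 each), with no overlap of the groups, and did not pass (log2 fold change -0.50, edgeR adjusted p = 0.161, and 0.0525 with the block). E2f8, a repressive E2F, averaged 27.4 ± 7.86 CPM in EPS and 52.2 ± 11.7 CPM in control, and passed as lower with the block (log2 -0.80, edgeR adjusted p = 0.0127; -0.89 and 0.0802 without it). Cdkn2a and Cdkn2b, the INK4 inhibitor genes, were listed with 0 fragments in all 8 libraries.

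Of 48 further replication genes, edgeR called 0 (12 at an unadjusted p below 0.05, or 25%, against 18.5% of all genes; 0 by DESeq2 and limma), and 30 had a log2 fold change above 0, with a median of 0.12. The origin licensing factor Cdt1, the kinase Cdc7 and the chromatin assembly factor Chaf1b, singled out because they passed as higher with the block (edgeR adjusted p = 0.0435, 0.0313 and 0.0162), had log2 fold changes of 0.89, 0.84 and 0.85 there. These 3 were 6.25% of the list, against 7.31% of all genes. Orc3, a subunit of the origin recognition complex and the gene with the highest mean FPKM of the list, averaged 42.2 ± 5.61 CPM in EPS and 54.4 ± 6.8 CPM in control (log2 fold change -0.40, edgeR adjusted p = 0.199). Of 57 further mitosis genes, edgeR called 0 (1 at an unadjusted p below 0.05, or 1.75%; 0 by DESeq2 and limma), and 48 had a log2 fold change below 0, with a median of -0.24. In this list too, EPS libraries 1 and 2 were both below EPS libraries 3 and 4 in most genes (50 of 57), and control library 4 was the highest deep control in 57 of 57. Bub3, a spindle checkpoint protein and the gene with the highest mean FPKM of that list, averaged 60 ± 9.86 CPM in EPS and 59.6 ± 2.51 CPM in control.

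Myotube markers were lower in EPS in sum, and the part of this and the other marker lists in the results on cell cycle genes was not tested. Of 13 tested myotube markers, all had a log2 fold change below 0 (median -0.70), and 1 passed as lower, or 11 with the block. These were 7.69%, against 0.758% of all genes, and 84.6% with the block, against 4.78% of all genes. The transcription factor Mef2c was at 509, 457, 617 and 660 CPM in EPS libraries, against 979, 915, 1165 and 1148 CPM in control libraries, and fell by 0.91 on the log2 scale (SE 0.18, edgeR adjusted p = 0.0287). That call was lost without EPS library 1 (edgeR adjusted p = 0.113) or control library 1, 3 or 4 (0.0867, 0.127 and 0.108). It was also lost with length and GC offsets (edgeR adjusted p = 0.051) and in both limma fits (limma adjusted p = 0.0858 and 0.0992). The summed myotube markers were at 13138 to 18714 CPM in EPS libraries and 22808 to 24793 CPM in control libraries. Ttn was marked as skipped in the deposited table.

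Of 11 tested markers of myoblasts and undifferentiated cells, edgeR called 0 without the block and 1 as lower with it (9.09%, against 4.78% of all genes). At an unadjusted edgeR p below 0.05 there were 2 (18.2%, against 18.5% of all genes), DESeq2 called 2 lower and limma 0. The log2 fold change was below 0 for 10 of the 11 markers, with a median of -0.27. In the same-numbered pairs of deep libraries all 11 were below 0 in all 3 pairs, against 3750 of 13987 genes tested. The median log2 ratios were -0.48, -0.35 and -0.32 for numbers 1, 3 and 4. The summed myoblast markers were at 5725 to 6800 CPM in EPS libraries and 7500 to 9499 CPM in control libraries. Most of it came from Des, the muscle intermediate filament desmin, at 3773, 3058, 4477 and 4704 CPM in EPS libraries and 6635, 5699, 5691 and 5184 CPM in control libraries. Itga7 was next, at 1608, 2064, 1394 and 1426 CPM in EPS libraries and 1882, 1168, 1654 and 1776 CPM in control libraries. The sum thus mainly followed these genes and is no measure of how many undifferentiated cells there were. Pax7, which marks satellite cells, was at 9.94, 3.77, 26.7 and 22.2 CPM in EPS libraries, and at 13.1, 19.9, 39 and 33.6 CPM in control libraries, so it too was lowest in EPS libraries 1 and 2. Myod1, the myogenic factor of committed myoblasts and myotubes, averaged 67.8 ± 25.9 CPM in EPS and 151 ± 36.5 CPM in control, and passed as lower with the block (log2 -1.19, edgeR adjusted p = 0.00262, and 0.0525 without it).

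Of the fibroblast list, 5 of 7 were tested, with summed levels of 1594 to 4369 CPM in EPS libraries and 1881 to 5678 CPM in control libraries, mostly from the collagen gene Col3a1, and the sums of the groups overlapped. edgeR called 0 of the 5, and with the block 1 higher and 1 lower (20% each, against 7.31% and 4.78% of all genes). Of the 5, 1 had an unadjusted edgeR p below 0.05 (20%, against 18.5% of all genes), DESeq2 called 1 higher and limma 0. Of the 5 endothelial markers only Tek had enough fragments to be tested, with at most 1.52 CPM in any library (log2 fold change 0.43, edgeR adjusted p = 0.648), and Emcn was at 0 in all. The adhesion molecule Pecam1 was at 2.16, 10.8, 0.155 and 0.0462 CPM in EPS libraries, where 10.8 CPM is 135 fragments, and at 0.0542, 0, 0.236 and 0.0478 CPM in control libraries. Kdr, a receptor of vascular endothelial growth factor, was at 0.721, 2.17, 0.259 and 0.138 CPM in EPS libraries and at 0 in all control libraries. The summed endothelial markers were at 1.14 to 14.8 CPM in EPS libraries and at 0 to 1.26 CPM in control libraries, with EPS libraries 1 and 2 highest. Of the macrophage markers 2 of 5 were tested, and Adgre1 was at 0 in all. The endosomal protein gene Cd68 was at 8.08, 27, 2.07 and 2.12 CPM in EPS libraries and at 1.46, 8.52, 1.89 and 1.48 CPM in control libraries (log2 fold change 2.44, edgeR adjusted p = 0.172, and 0.0708 with the block). EPS library 2 was the highest of its group, while 8.52 CPM in control library 2 rests on 3 fragments. Itgam, an integrin of myeloid cells, was at 0.309, 2.09, 0.259 and 0.415 CPM in EPS libraries and at 2, 0, 0.945 and 1.24 CPM in control libraries, and passed as lower with the block (log2 -1.76, edgeR adjusted p = 0.0426; -0.91 and 0.528 without it). The 5 macrophage markers summed to 2.9 to 29.8 CPM in EPS libraries and 2.87 to 8.52 CPM in control libraries. Of 5 neuron markers, Snap25, Syt1, Rbfox3 and Elavl4 were at 0 in all libraries, and Tubb3, a tubulin also made by other cells, averaged 100 ± 10.2 CPM in EPS and 74.6 ± 17.9 CPM in control (edgeR adjusted p = 0.195, and 0.0453 with the block).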

How the data were processed

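Total RNA of 8 C2C12 libraries, 4 EPS and 4 control, was sequenced in 2 lanes each (16 samples), and the sample titles gave the groups and the replicate numbers. The submitters' processing notes list the build mm10 and the tools STAR 2.5.1, Cuffdiff 2.2.1 and Cufflinks. The sources used here do not state the annotation release or the strand setting. Per the file headers, the deposited table holds Cuffdiff's estimated counts (unscaled fragments per gene and library) and FPKM values scaled by the authors' run of Cuffdiff. Of the estimated counts above 0, 93.3% were whole, and all were rounded. Another 46 genes marked as having too many fragments (15 in EPS, 40 in control; none of the 44 genes) were left out.

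Genes were filtered with filterByExpr (minimum count 10, minimum total 15), scaled by TMM and tested with edgeR 4.0.16 (R 4.3.3, quasi-likelihood, no covariate) over 13987 genes, with a threshold of 0.05 on the Benjamini-Hochberg adjusted p. CPM values use TMM-scaled library sizes, fold changes are fitted values that need not equal ratios of means, and standard errors were derived from the F statistic and are approximate. Log2 CPM values, used for class medians and ratios within pairs, have a prior count of 2. DESeq2 1.42.0, limma 3.58.1 on log2(FPKM + 1) and log2(FPKM + 0.1), offsets for transcript length and GC content, a replicate block and leaving out libraries served as alternatives. The scripts were tested on simulated data.

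Symbols were matched on identifiers without version to GENCODE M21 (48051 of 48432 matched). Of the 44 genes, 21 overlap another annotated gene and 9 a tested one. Promoters came from RefSeq. The number pairs the libraries by the data: deviations from group means correlated across genes at 0.300, 0.214, 0.286 and 0.297 between same-numbered EPS and control libraries. EPS library 3 with control library 4 and EPS library 4 with control library 3 correlated at 0.253 and 0.231, close to the same-numbered values, so numbers 3 and 4 are hardly told apart, and the labels do not say what a number marks.

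The 44 genes, the further lists and the tests were chosen with earlier results of these data known. By rule, every library's value is given for members past the threshold, for G1 members, and in the other classes for the 3 genes with the highest mean FPKM and those with the highest and lowest fold change. From each other list, up to 4 called genes, or else the gene with the highest mean FPKM, are named. Other genes named with values were chosen after these were seen.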

Additional observations from a re-analysis of the deposited data

Results flagged for a closer look

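A value was picked out where 1 of the 4 libraries of a group lay far from the other 3 (by Dixon's test of the gap over the range). This happened in 8 of 88 groups of 4, and chance gives it in about 1 in 20 groups. The cause was not tested for any of them. Ccnd1 was at 90 CPM in EPS library 4, while the other EPS libraries were at 72 to 72.3 CPM. Ccnd2 was at 70.2 CPM in EPS library 2 (others 16.3 to 24.8) and at 45.5 CPM in control library 2 (others 14.8 to 16.2). Cdk6 showed the same libraries on the high side, with 195 CPM in EPS library 2 (others 70.6 to 81.6) and 119 CPM in control library 2 (others 51.4 to 59.7). Ccnd3 was at 128 CPM in control library 2, where the other controls were at 301 to 323 CPM. Mcm6 was at 65.7 CPM in control library 4 (others 42.6 to 46.4). Cdc25c, the least abundant of the 8, was at 4.11 CPM in EPS library 4 (others 1.92 to 2.28). Control library 2 held 0.354 M fragments, and its values for Ccnd2, Cdk6 and Ccnd3 rest on 16, 42 and 45 fragments.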

How the results depend on the processing

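The 44 genes were refitted under 17 alternatives, of which the fit without both libraries numbered 2 was chosen after seeing the data, and 686 of 748 results kept their direction and their side of the threshold. Of the rest, 35 turned in sign, 16 gained a call and 11 lost it. All 11 losses were of Ccnd1, the only member called in the main fit. The other members were not called there, so for them staying on that side says little about robustness. Across all genes, 322 were higher and 106 lower in EPS, with 633 and 294 in DESeq2, 1023 and 668 with the replicate block, 625 and 710 with block and offsets, 130 and 48 in limma on log2(FPKM + 1), 94 and 29 in limma on log2(FPKM + 0.1), 92 to 427 and 22 to 167 with 1 library left out, 162 lower with no filter, 224 lower with offsets and 325 lower without both libraries numbered 2. Of the 44, the replicate block called 4 higher and 4 lower, offsets 0 and 1, block with offsets 1 and 4, DESeq2 1 and 1, both limma fits 0 higher, fits with 1 library left out 0 to 1 each way, and the fit without both libraries numbered 2 called 0 and 2. Of the further genes, 1 was higher with DESeq2 size factors, no filter or offsets, 0 in both limma fits, 5 with the block and 0 to 2 with 1 library left out, and 2 were lower in DESeq2 and with the block, 3 with block and offsets and 1 to 2 with 1 library left out. Ccnd1 was above 0 in all alternatives and missed the threshold with offsets (0.76), in limma (0.97 and 1.04, adjusted p = 0.0501 and 0.0602), with 7 of 8 libraries left out in turn (0.79 to 1.17 over all 8) and without both libraries numbered 2 (0.89). The class medians kept their sign under all 17, from -0.38 to -0.068 for G1, 0.064 to 0.30 for replication and -0.63 to -0.081 for mitosis. Signs of 11 genes, none past the threshold and with log2 fold changes between -0.38 and 0.19, turned. Ccne2 was at -0.0041 with no filter, -0.12 with offsets and -0.032 with block and offsets, and Mcm4 at -0.019 with offsets. Tyms was at 0.057 with the block, 0.15 and 0.20 in limma and 0.018 without both libraries numbered 2, Aurkb at 0.029 in DESeq2, 0.22 with the block, 0.17 with block and offsets, 0.075 and 0.079 in limma and 0.18 without both libraries numbered 2, and Bub1b at 0.051 with the block and 0.0058 and 0.012 in limma. With 1 library left out, the ranges that crossed 0 were -0.41 to 0.014 for Cdkn2c, -0.0043 to 0.28 for E2f1, -0.11 to 0.20 for Ccne2, -0.24 to 0.23 for Tyms, -0.61 to 0.10 for Cdk1, -0.69 to 0.08 for Birc5, -0.35 to 0.26 for Aurka, -0.40 to 0.57 for Aurkb, -0.30 to 0.35 for Bub1b and -0.46 to 0.067 for Cenpf. The cause of these changes was not tested. The replicate block changed no call of the text other than those given with it. Depth limits the values of control library 2, where 3 fragments equal 8.46 CPM.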
